A study of Homo sapiens with 17 samples.

Results

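The reads described here fall into 4 classes of the 1 h TL-seq table: reads given to no gene on chromosomes 1 to 22 (nuclear unassigned), reads given to no gene on chrM (mitochondrial unassigned), gene reads that crossed a splice junction, and gene reads that did not. They were chosen by the gene, chromosome and junction columns of the table and by no measured level, with chrX and chrY left out. No read on chrM was given to a gene. The mitochondrial class was therefore not parted from reads of mitochondrial genes, unlike the nuclear unassigned class, from which gene reads were taken out. The 4 classes made up 276696041 of the 294798660 reads of the table (93.9%). The remainder lay on chrX and chrY, on spike-in sequences or on unplaced contigs, or matched several genes.

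HEK-293T cells, a human embryonic kidney line labelled wild type, were left untreated or given 1.8 µM emetine for 1 h. Emetine stops ribosomes during translation elongation. The nucleoside s4U (4-thiouridine) was added at 500 µM to 3 untreated and 3 emetine samples. A further untreated and a further emetine sample had no s4U and served as the background (n = 1 each). Nothing in the labels said whether replicates came from separate cultures, so p-values measure the spread between these libraries, which may be technical. Among the markers fixed for the line, VIM stood at 532 to 671 CPM and NEFM at 148 to 217 CPM in the 6 s4U libraries. KRT18 stood at 38.4 to 61.2 CPM and KRT8 at 4.35 to 7.21 CPM, whereas PAX2 reached at most 2.62 CPM. PTPRC, a blood cell gene, and ALB, a liver gene, had no read, and COL1A1, a fibroblast gene, stood at 20.4 to 28.99 CPM. The libraries held 27416189 to 48852046 reads. The third emetine library stood apart from the others of its group in its shares of mitochondrial and nuclear unassigned reads. The second emetine library stood apart in T positions per read.

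RNA made after s4U is added carries the analog, and the chemistry of TL-seq makes it read as C where the genome has T. An RNA precursor still holds its introns, which the spliceosome removes within minutes to hours of transcription, so that a read across a splice junction comes from RNA that has been spliced at that site. Mitochondrial RNA is made by its own polymerase from a small circular genome without introns, is cut out of long precursors and is decayed inside the organelle. Emetine acts on cytosolic ribosomes, and mitochondrial ribosomes belong to a different family.

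The table gives the chromosome of a read and not its position, so no region within a chromosome could be named. To show what a junction read is, the exon 2 to exon 3 join is printed for the leading gene in each direction of the comparison below of junction reads with the other reads of a gene. These are the reference letters of the RNA strand (hg38), with T in capitals because only T positions can show a conversion, and with 15 bases from each exon.
RPS29: aTcggTTTcaTTaagTTggacTaaaTgcTc
ZC3HAV1: TTTTTTaTgcccgagaTaTgcaaaagTTaT
The RPS29 join on the minus strand brings chr14:49585950-49585964 next to chr14:49583661-49583675 and holds 11 T in 30 bases. The ZC3HAV1 join on the minus strand brings chr7:139089624-139089638 next to chr7:139084018-139084032 and holds 12 T in 30 bases. Which joins the reads of these genes crossed is not in the table.

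The question put to the classes was how much of each is new RNA after 1 h, and whether emetine altered it. Nuclear unassigned reads and reads on chrM were far richer in conversions than gene reads in every s4U library, and junction reads were the poorest. Nuclear unassigned reads had 3.88%, 3.98% and 4.36% conversions per T in the untreated libraries and 3.90%, 3.71% and 4.23% in the emetine libraries. Mitochondrial reads had 2.11%, 2.08% and 2.13% untreated and 2.27%, 2.15% and 2.14% with emetine. Junction reads had 0.485%, 0.582% and 0.650% untreated and 0.554%, 0.566% and 0.613% with emetine. Gene reads without a junction had 1.07%, 1.31% and 1.37% untreated and 1.16%, 1.18% and 1.24% with emetine. The order of the 4 classes was the same in all 6 libraries, and the ranges of the classes did not overlap.

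Within a library, nuclear unassigned reads carried 4.28 times the conversions per T of all gene reads (range 4.07 to 4.79, 6 of 6 libraries higher, exact sign-flip permutation test on both sides, p = 0.03125, adjusted over 3 contrasts p = 0.03125, the lowest value 6 libraries can reach). Mitochondrial reads carried 2.30 times the gene rate (1.99 to 2.60, higher in 6 of 6 libraries, exact p = 0.03125, adjusted p = 0.03125). Junction reads carried 0.470 times the rate of gene reads without a junction (0.445 to 0.496, lower in 6 of 6 libraries, exact p = 0.03125, adjusted p = 0.03125). The libraries without s4U gave the background of these ratios. There the nuclear unassigned rate was 0.764 (untreated) and 0.791 (emetine) times the gene rate, the reverse order. The junction to non-junction ratio without s4U was 0.966 and 0.965, near 1. Mitochondrial reads without s4U still stood at 1.32 and 1.34 times the gene rate, at 0.0668% and 0.0697% conversions per T, and subtracting that background from each class did not turn any of the 3 contrasts.

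**Figure D1:**
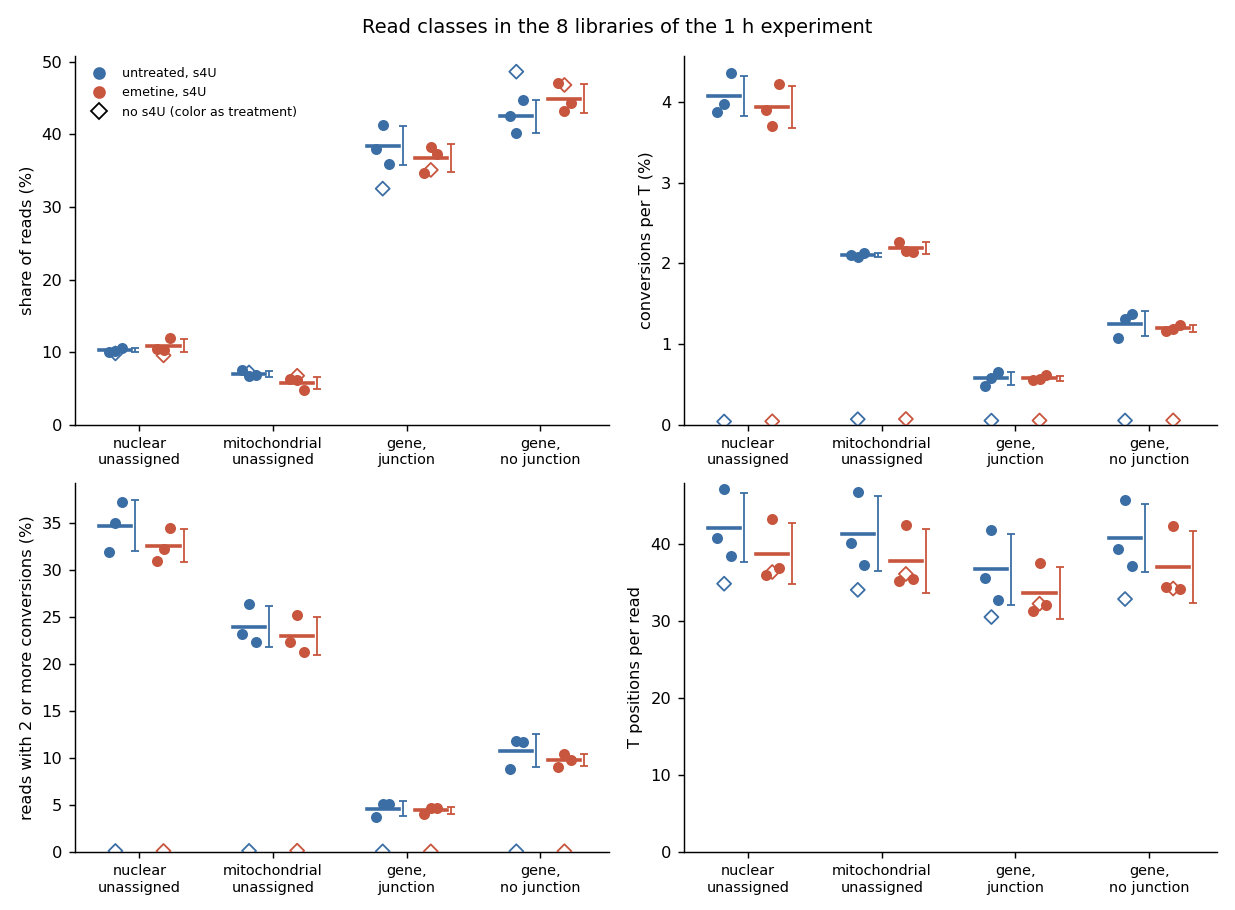
Each panel gives 1 measure for the 4 read classes: share of reads (%), conversions per T (%), reads with 2 or more conversions (%) and T positions per read. Filled points are the 3 libraries with s4U of each treatment, bars their mean with SD beside it, and open diamonds the single library without s4U; nuclear unassigned reads are highest and junction reads lowest in conversions, and the mitochondrial share is 6.70% to 7.51% untreated against 4.84% to 6.33% with emetine.

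Mitochondrial reads were the class whose share separated the treatments. They were 7.51%, 6.70% and 6.80% of reads in the untreated libraries and 6.33%, 6.21% and 4.84% in the emetine libraries. The groups did not overlap, and the third emetine library was the lowest. The means were 7.003% ± 0.438 and 5.79% ± 0.828 (SD, n = 3 each). By an exact permutation test on both sides p was 0.1, which is as low as 3 against 3 can go, and 0.8 after adjustment over the 24 class tests. Without the third emetine library the difference was -0.732 percentage points in place of -1.21. The single libraries without s4U gave 7.19% untreated and 6.74% with emetine. Their 95% Wilson intervals, which cover counting error only, were 7.18% to 7.20% and 6.73% to 6.74%. A share says nothing of amounts per cell: set against spike-in reads, mitochondrial reads ran at 10.7, 13.3 and 8.92 per spike-in read untreated and at 19.9, 8.92 and 11.3 with emetine, on average 0.22 higher on the log2 scale with emetine (exact p = 0.7). Whether the amount of mitochondrial RNA in each cell, or the number of cells that hold it, changed cannot be told from these bulk reads.

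In a fit of all 13288 rows (13265 genes with more than 100 counts and 1 row of unassigned reads for each chromosome), 2.5% of rows were called higher with emetine and 0.0376% lower (edgeR quasi-likelihood test, adjusted p under 0.05). None of the 23 unassigned rows was called in either direction, also with DESeq2, and 1 of them, chrM, had an unadjusted p under 0.05. Mitochondrial reads stood at 79493, 71110 and 73223 CPM untreated and at 62479, 62988 and 44510 CPM with emetine. The log2 fold change was -0.40 (SE 0.16, edgeR adjusted p = 0.21). Without the third emetine library it was smaller at -0.25 but passed the threshold (adjusted p = 0.0222), and with spike-in reads for scaling it was 0.28 (adjusted p = 0.541), where the median of all rows moved from 0.03 to 0.71. The 22 nuclear rows had log2 fold changes from -0.12 to 0.04 with a median of -0.02, against 0.03 over all rows, and 5 of them were positive.

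The nuclear unassigned share was 10.0%, 10.2% and 10.5% untreated and 10.4%, 10.3% and 11.9% with emetine (means 10.2% ± 0.268 and 10.9% ± 0.878, exact p = 0.3). The ranges overlapped, with the third emetine library the highest. Junction reads were 38.1%, 41.3% and 35.9% of reads untreated and 34.7%, 38.3% and 37.3% with emetine (exact p = 0.5). Gene reads without a junction were 42.6%, 40.2% and 44.8% untreated and 47.1%, 43.3% and 44.4% with emetine (exact p = 0.3). Both gene classes overlapped between treatments, and the libraries without s4U held 32.5% (untreated) and 35.1% (emetine) junction reads.

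Conversions per T of mitochondrial reads were 2.11% ± 0.0263 untreated and 2.19% ± 0.0721 with emetine (n = 3 each), and the lowest emetine library, 2.142%, lay just above the highest untreated one, 2.135% (exact p = 0.1, adjusted p = 0.8). Nuclear unassigned reads had 4.08% ± 0.252 and 3.95% ± 0.263 (exact p = 0.6). Junction reads had 0.573% ± 0.0830 and 0.577% ± 0.0312 (exact p = 1), and other gene reads 1.25% ± 0.155 and 1.19% ± 0.0380 (exact p = 0.6). The first untreated library was the lowest of its group in all but the mitochondrial class. The junction to non-junction ratio was closer to 1 with emetine: on the log2 scale it was -1.15, -1.17 and -1.07 untreated and -1.07, -1.06 and -1.01 with emetine. These values did not overlap (exact p = 0.1, adjusted over 3 contrasts p = 0.3; the test was chosen after the values were seen), although the highest untreated value, -1.073, and the lowest emetine value, -1.071, were almost equal.

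Reads with 2 or more conversions were 34.7% ± 2.68 of nuclear unassigned reads untreated and 32.6% ± 1.75 with emetine (exact p = 0.3). For mitochondrial reads the shares were 23.98% ± 2.16 and 22.9% ± 2.03 (exact p = 0.5). For junction reads they were 4.59% ± 0.799 and 4.43% ± 0.380 (exact p = 0.6), and for other gene reads 10.8% ± 1.72 and 9.75% ± 0.676 (exact p = 0.4). No class separated the treatments in this measure. Without s4U these shares were 0.0784% in both nuclear unassigned samples, 0.0890% and 0.110% in mitochondrial reads and at most 0.0526% in gene reads.

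A read of the table held up to 184 T positions, and whether it stands for a single read or for joined mates of a pair is not given in the sources used here. The number of T positions per read, which sets how many conversions a read can show, moved with the library and not with the class alone. Replicate 2 had the highest value of its group in every class: 47.1 T per nuclear unassigned read untreated and 43.3 with emetine, against 38.5 to 40.8 and 36.0 to 36.9 in the other libraries of those groups. The group means were 42.1 ± 4.46 and 38.8 ± 3.96 for nuclear unassigned reads (exact p = 0.5), 41.4 ± 4.89 and 37.7 ± 4.16 for mitochondrial reads (exact p = 0.5), 36.7 and 33.6 for junction reads (ranges 32.7 to 41.8 and 31.3 to 37.5, exact p = 0.5) and 40.8 ± 4.41 and 37.0 ± 4.68 for other gene reads (exact p = 0.4). Junction reads had the fewest T in all 6 libraries. Conversions per T divide by this number, whereas the share of reads with 2 or more conversions rests on it; its part in that share was not tested beyond reads with 20 to 40 T, where the mitochondrial difference was 0.573 percentage points higher with emetine in place of 1.04 lower (exact p = 0.4).

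Mitochondrial and nuclear unassigned reads reached their conversions by different profiles. Reads with exactly 1 conversion made up 13.1% to 15.97% of mitochondrial reads over the 6 libraries, against 5.84% to 7.63% of nuclear unassigned reads. Reads with 6 or more made up 0.681% to 1.75% of mitochondrial reads, against 7.52% to 13.2% of nuclear unassigned reads. A read with at least 2 conversions held on average 3.03 ± 0.165 (untreated) and 2.97 ± 0.106 (emetine) of them on chrM, but 4.76 ± 0.443 and 4.48 ± 0.269 on the nuclear chromosomes. The ranges of these 2 classes did not overlap in any of these measures. Junction reads lay between them in this last measure, with 3.97 ± 0.336 and 3.78 ± 0.195 conversions in junction reads that had at least 2.

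**Figure D2:**
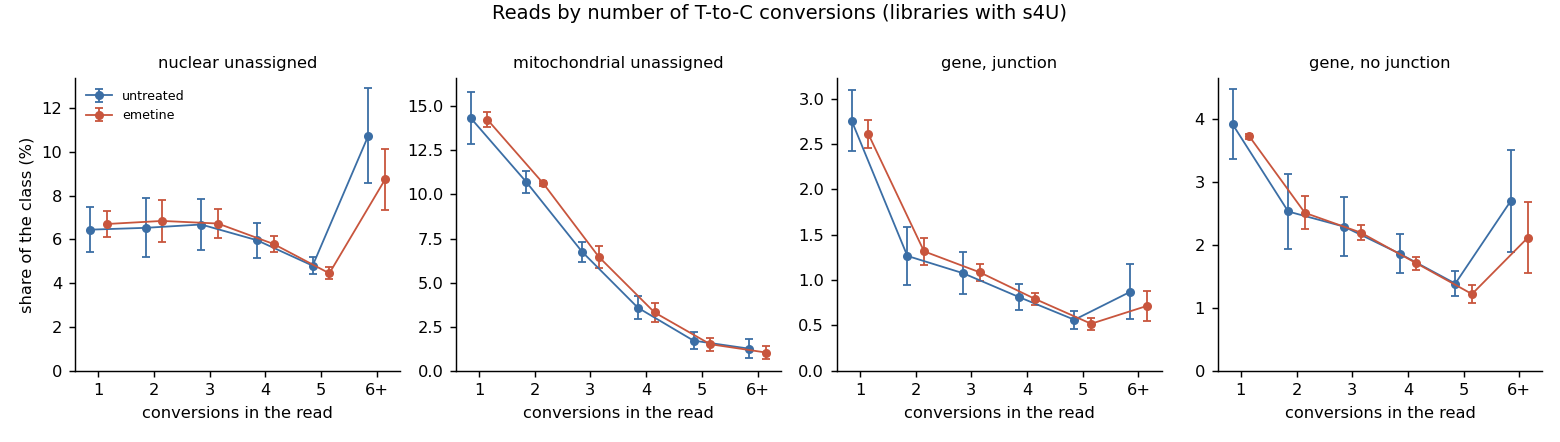
Share of the reads of each class (%) that had 1 to 5 or at least 6 conversions, as mean and SD of the 3 untreated and the 3 emetine libraries with s4U; each panel has its own vertical scale. Mitochondrial reads decline steadily from 1 conversion onward, whereas nuclear unassigned reads stay nearly level up to 3 conversions and have group means of 10.7% (untreated) and 8.74% (emetine) with 6 or more.

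A 2-component binomial mixture, with old reads at the rate of the library without s4U, split each class into new and old reads and gave the conversion rate of the new ones. The fraction of new reads overlapped between the 2 unassigned classes: 37.8%, 40.7% and 46.1% untreated and 38.9%, 38.1% and 43.2% with emetine for nuclear reads, and 41.0%, 45.4% and 46.2% untreated and 43.5%, 43.6% and 43.0% with emetine for mitochondrial reads. The rate within new reads did not overlap: it was 9.25% to 10.1% for nuclear unassigned reads, 8.56% to 9.55% for junction reads and 8.49% to 9.53% for other gene reads, but only 4.53% to 5.16% for mitochondrial reads. Every mitochondrial value lay below every value of the other classes. Junction reads were 5.94% ± 1.23 new untreated and 5.85% ± 0.396 with emetine (exact p = 1), and other gene reads 13.5% ± 2.41 and 12.6% ± 0.604 (exact p = 0.6). The emetine and untreated fractions overlapped in all 4 classes (exact p between 0.6 and 1). The model takes 1 rate for all new reads of a class, so a spread of rates within a class would shift both numbers.

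**Figure D3:**
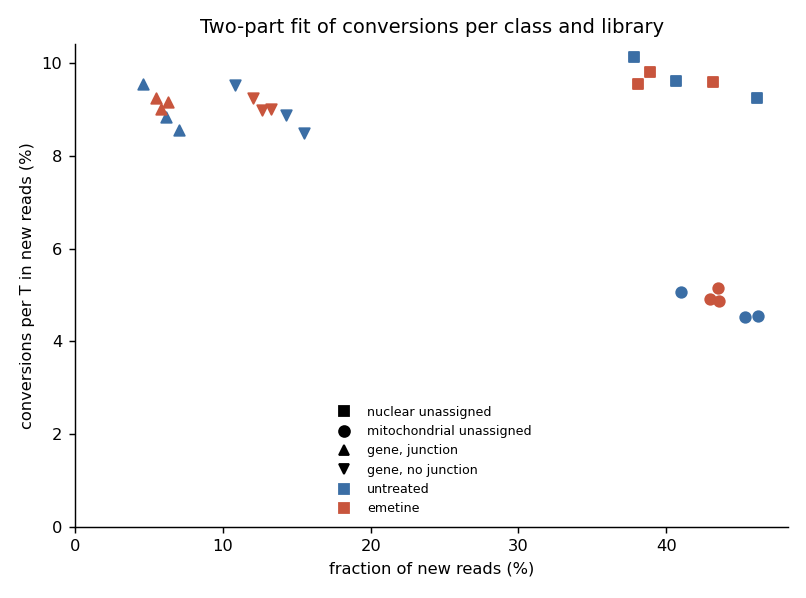
Fraction of new reads (%) against conversions per T within new reads (%), both from the 2-component fit, for the 4 classes in the 6 libraries with s4U (shape gives the class, color the treatment). The circles of the mitochondrial class lie at 4.53% to 5.16% on the vertical axis, below all other points, at fractions of new reads that overlap those of the nuclear unassigned class.

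The unassigned class on nuclear chromosomes was not uniform. The table has an exon-and-intron mark, and only unassigned reads carried the mark. Reads with neither a junction nor the mark were the bulk, at 72.9% ± 2.72 of the class untreated and 75.1% ± 2.89 with emetine, and had 4.42% ± 0.255 and 4.24% ± 0.259 conversions per T. What sets the mark is not given in the sources used here beyond its name, so it is used as a label only. Reads with the mark and no junction had the highest rate, 5.19% ± 0.104 untreated and 4.88% ± 0.128 with emetine. These 2 ranges did not overlap (exact p = 0.1, the smallest possible, 0.375 after adjustment over 30 tests), nor did their share of the class, 10.6% ± 0.336 and 9.61% ± 0.341 (exact p = 0.1), nor their share with 2 or more conversions, 43.7% ± 2.27 and 39.5% ± 1.48 (exact p = 0.1). All 3 values were lower with emetine. Over all reads of the library, however, the reads with the mark and no junction were 1.08% ± 0.0185 and 1.04% ± 0.0522, which overlapped.

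Unassigned reads that crossed a junction were poorer in conversions, as among gene reads. Those with the exon-and-intron mark made up 14.3% ± 2.29 of the class untreated and 12.9% ± 2.43 with emetine, at 1.72% ± 0.124 and 1.75% ± 0.0381 conversions per T. Those without the mark made up 2.29% ± 0.138 and 2.35% ± 0.251, at 1.897% ± 0.242 and 1.88% ± 0.120. Both lay above the 0.485% to 0.650% of gene junction reads and below the unassigned reads without a junction in the same libraries.

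On chrM, whose genes have no introns, 9.46%, 11.9% and 9.23% of reads were marked as crossing a junction in the untreated libraries and 6.96%, 8.53% and 7.80% with emetine. The groups did not overlap (exact p = 0.1), but the libraries without s4U stood in the other order, at 5.43% untreated and 8.43% with emetine. In those 2 libraries the chrM reads marked as crossing a junction had 2 or more conversions in 0.663% and 0.544% of cases, against 0.0560% and 0.0701% of the other chrM reads. With s4U the marked and unmarked chrM reads had 2.04% ± 0.101 and 2.12% ± 0.0206 conversions per T untreated.

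By chromosome, the number of unassigned reads per 100 gene reads ran from 9.05 to 21.96 on all chromosomes but 21 in the 6 libraries with s4U. Chromosomes 13, 18 and 4 had the highest means among these, at 20.7, 20.03 and 17.4, and chromosomes 11 and 19 the lowest, at 9.57 and 9.87. Chromosome 21 stood at 26.4 to 40.7, and its unassigned reads had the fewest conversions, 2.19% to 2.79% per T, against 3.44% to 5.05% on the others. On chromosome 21, unassigned reads with both a junction and the exon-and-intron mark made up 35.3% to 49.2% of the class, at 0.396% to 0.621% conversions per T, whereas on the other chromosomes they made up 10.4% to 16.3%, at 1.66% to 1.96%. Unassigned reads of chromosome 21 with neither mark had 3.87% to 4.35%, close to the 4.03% to 4.70% of the others.

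**Figure D4:**
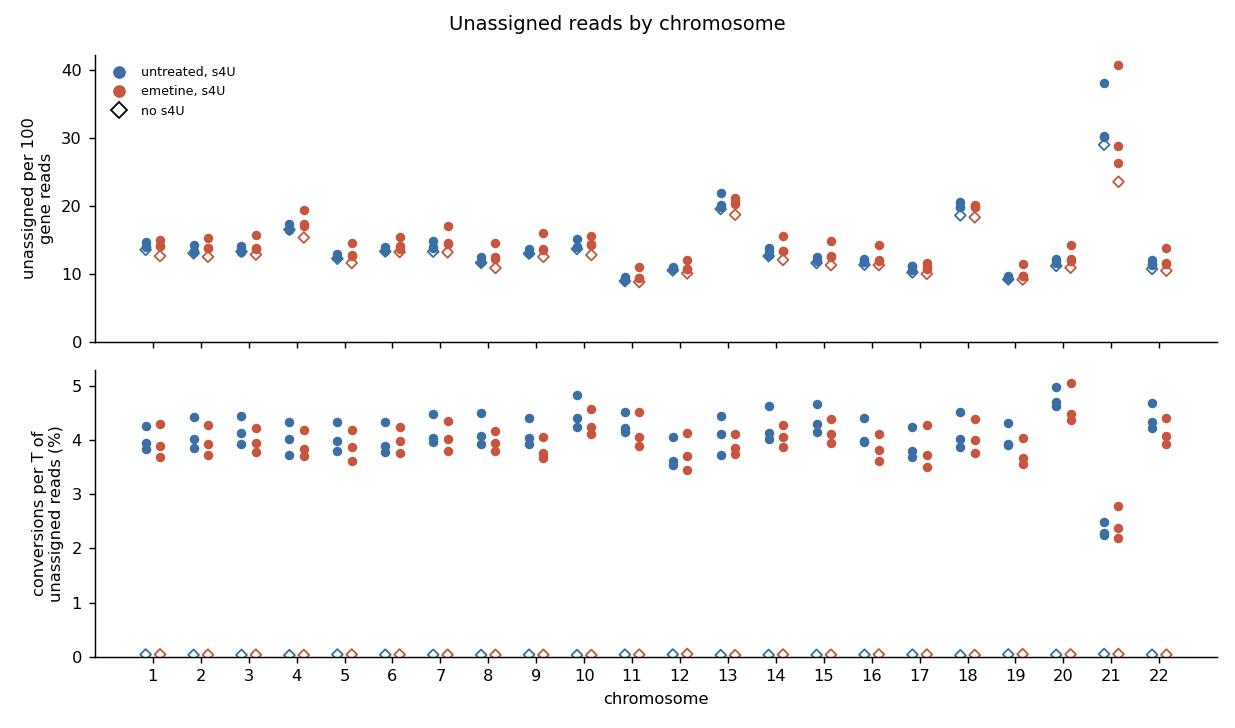
Unassigned reads per 100 gene reads (top) and conversions per T of unassigned reads in % (bottom) for chromosomes 1 to 22; each point is a library (blue untreated, red emetine, open diamonds without s4U). Chromosome 21 stands alone, at 26.4 to 40.7 unassigned reads per 100 gene reads and 2.19% to 2.79% conversions per T in libraries with s4U.

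Of 67 chromosome and class rates, 0% were called higher and 0% lower with emetine (limma on log2 conversions per T, adjusted p under 0.05, and none had an unadjusted p under 0.05). Without the first untreated library, which had the lowest gene rates of its group, 18 rates were called lower. The median log2 ratio of emetine to untreated was -0.05 for nuclear unassigned reads, 0.03 for junction reads and -0.08 for other gene reads over 22 chromosomes each. With the median of each library set to 0 first, 11.9% (8 rates) were called higher and 8.96% (6 rates) lower. The 14 rates called then were all of gene reads: 3 of junction reads and 5 of other gene reads were higher, and 6 of other gene reads lower. No unassigned rate was called. Chromosome 16 had the largest centered decrease among gene reads without a junction, -0.10 (limma adjusted p = 1.03e-05), and chromosome 20 the largest centered increase of junction reads, 0.17 (adjusted p = 0.000696).

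Junction share, the percentage of a gene's reads that cross a junction, depended foremost on the gene. Over 13265 genes with more than 100 reads the median was 26.4%, with quartiles of 10.6% and 49.5%. In 738 genes it was under 1%, and in 174 over 90%. Of these genes, 12924 (97.4%) matched a gene of GENCODE 44. The 317 matched genes with a single exon in every annotated transcript had a median share of 0%, and 177 of them had no junction read at all. The median was 2.74% for 473 genes with at most 2 exons, 12.6% for 2525 genes with 3 to 5, 27.5% for 3931 genes with 6 to 10, 35.7% for 3844 genes with 11 to 20 and 40.8% for 1834 genes with 21 or more. These medians over genes were higher in each group with more exons, whereas the share pooled over reads was 40.1%, 50.2%, 47.95% and 48.7% in the last 4 groups.

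Emetine moved the junction share of no gene past the threshold. Among 10021 genes with at least 10 reads of each class in each library, 0% were called higher and 0% lower (edgeR quasi-likelihood test of the junction by treatment term, adjusted p under 0.05). At an unadjusted p under 0.05, 30 genes were higher and 31 lower by edgeR, and limma on the log2 odds also called none, with 45 and 92 unadjusted. The unadjusted counts depended on single libraries: they were 286 and 12 without the first emetine library, 348 and 250 without the second and 18 and 131 without the third. The median log2 odds ratio was 0.01, but it ran from -0.15 without the third emetine library to 0.16 with an offset for the junction odds of the whole library, so list medians are read against that shift. Without the third emetine library, 2 genes were called higher and 1 lower.

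The fixed gene lists show the range of junction shares. Cytosolic ribosomal protein genes, which encode the proteins of the ribosome in short, strongly expressed mRNAs, had a pooled junction share of 86.6% ± 2.37 untreated and 83.8% ± 3.51 with emetine. Without s4U these genes had 79.1% untreated and 81.5% with emetine, the reverse order. None of their 69 tested members was called; 2 had a positive log2 odds ratio, and the median was -0.36, against 0.01 over all genes tested (-0.22 against 0.16 with the library offset). RPS2 had 83.9%, 92.1% and 79.2% junction reads untreated and 74.8%, 86.3% and 78.1% with emetine, so the treatments overlapped. RPL3 had 90.4%, 93.3% and 88.5% untreated and 86.9%, 91.8% and 85.9% with emetine. Spliceosome genes, which encode the small nuclear ribonucleoproteins and their partners, had 66.8% ± 4.90 and 64.4% ± 4.24. Without s4U the spliceosome genes had 56.2% untreated and 58.9% with emetine, again the reverse order. None of the 14 tested members was called, and the median log2 odds ratio was -0.17 (-0.03 with the library offset). SNRPB, a core protein of the ribonucleoproteins, had 82.9%, 86.8% and 79.4% untreated and 75.5%, 83.3% and 78.7% with emetine.

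Hosts of small nucleolar RNAs, whose introns hold the snoRNAs, had a higher pooled share with emetine. It was 43.0% ± 1.41 untreated and 47.9% ± 2.55 with emetine, without overlap, and the libraries without s4U gave 42.0% and 47.8%. With the weight of each gene held fixed it was 44.3% ± 1.89 and 46.1% ± 1.70, which overlapped. None of the 9 tested hosts was called, and the median log2 odds ratio was 0.04, with 5 of 9 positive. With the library offset the median was 0.19, with 6 of 9 positive, against 0.16 over all genes tested. SNHG1 had 18.6%, 20.7% and 17.997% untreated and 25.2%, 24.8% and 30.6% with emetine, without overlap, and 17.1% and 23.5% without s4U. It was among the hosts not called, and the share of all genes without such overlap is not given here. GAS5 had 86.3%, 88.3% and 83.0% untreated and 86.4%, 91.6% and 89.8% with emetine.

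Detained-intron genes, whose RNA is known to wait in the nucleus with certain introns unspliced, had a pooled share of 26.4% to 29.7% untreated and 32.4% to 41.1% with emetine, without overlap, and 25.2% and 32.0% without s4U. With the weight of each gene held fixed, a calculation added after seeing the data, it was 30.3% ± 2.57 and 33.9% ± 5.66, and the treatments overlapped. None of the 6 tested members was called, and 5 had a positive log2 odds ratio, with a median of 0.15. With the library offset 6 were positive and the median was 0.30, against 0.16 over all genes tested. MAT2A, which makes S-adenosylmethionine, had 16.6%, 18.1% and 14.6% untreated and 16.8%, 16.1% and 29.9% with emetine, so that the third emetine library alone stood high. CCNL2, a cyclin that acts in splicing, had 29.4%, 33.3% and 29.3% untreated and 30.9%, 31.1% and 41.4% with emetine, again with the third emetine library alone above the untreated ones. CLK2, a kinase of SR proteins, had 50.9%, 57.2% and 47.3% untreated and 51.3%, 53.9% and 59.9% with emetine. The 4 detained-intron genes with most reads, CCNL1 being the other, all overlapped between treatments. SR factors, which bind exons to promote splicing, had 30.2% ± 2.62 and 29.4% ± 1.68, and none of 13 was called. Without s4U the SR factors had 24.4% untreated and 29.2% with emetine.

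Genes listed as without introns had few junction reads. The 13 genes had a pooled share of 0.156% to 0.213% untreated and 0.273% to 0.433% with emetine, and of 0.229% and 0.0847% without s4U. Only 1 of them had enough junction reads for the test of junction share, and it was not called. JUN, an immediate-early transcription factor for which GENCODE 44 also annotates transcripts with up to 4 exons, had 1, 6 and 3 junction reads beside 3303, 4242 and 2641 others untreated, and 11, 133 and 108 beside 35324, 33509 and 33768 with emetine. Conversions per T of their reads without a junction were 1.92% to 2.44% untreated and 4.94% to 5.98% with emetine, and 0.0520% and 0.0555% without s4U. These pooled rates also follow the larger number of JUN reads with emetine. With each gene given the same weight in every library, its T positions over the 6 libraries with s4U, the rates were 3.67% ± 0.261 and 4.26% ± 0.160. The many JUN reads of the emetine libraries enter that weight, and so both values. JUN itself had 8.08%, 8.20% and 8.54% untreated and 9.28%, 8.94% and 9.10% with emetine. HSPA1B, a heat shock chaperone whose near-identical copy HSPA1A makes its reads uncertain, had at most 62 junction reads in any library, and its other reads overlapped between treatments, at 0.520%, 0.823% and 1.07% against 0.918%, 0.897% and 1.21%. NEAT1 and MALAT1, nuclear long noncoding RNAs, had 0.0880% to 0.534% junction reads in the pooled untreated libraries and 0.171% to 0.396% with emetine.

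Zinc finger genes, many of which encode DNA-binding repressors in 1 long last exon, had a low junction share of 14.4% ± 1.39 untreated and 13.02% ± 1.59 with emetine over 475 genes. With the weight of each gene held fixed the order turned, to 13.3% ± 1.30 and 13.7% ± 2.11, with overlap in both cases. The libraries without s4U gave a pooled share of 10.8% untreated and 10.9% with emetine. Of 171 zinc finger genes tested, none was called, 89 had a positive log2 odds ratio and the median was 0.02. With the library offset the median was 0.16, as over all genes tested. Reads of zinc finger genes without a junction had 2.94% to 3.59% conversions per T untreated and 2.43% to 2.48% with emetine, without overlap, and 3.50% ± 0.310 and 2.38% ± 0.0289 at fixed weights. At fixed weights this rate was also lower without overlap in detained-intron genes (3.66% and 3.12%) and snoRNA hosts (4.27% and 3.53%). So it was in ribosomal protein genes (0.619% and 0.555%), but all these other lists overlapped when pooled. It was higher without overlap in NEAT1 and MALAT1 (4.21% and 4.70%) and in the genes listed as without introns. SR factors and spliceosome genes overlapped. ZNF703 had 5.11%, 5.36% and 5.67% in reads without a junction untreated and 3.96%, 3.54% and 4.13% with emetine, and ZNF503 had 6.41%, 6.64% and 6.80% against 4.45%, 4.41% and 4.69%. Neither gene overlapped between treatments. These single-gene rates were not tested, and the share of all genes without such overlap is not given here. ZNF207, a spindle assembly factor, had 0.951%, 1.21% and 1.23% against 0.896%, 0.984% and 0.972%, which overlapped.

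The lower conversion rate of junction reads was also seen within single genes. Among 5995 genes with at least 100 reads of each class in each library, 3736 (62.3%) had fewer conversions per T in junction reads and 52 (0.867%) more (limma on the log2 ratio with 0.5 conversions added, mean of 6 libraries, adjusted p under 0.05). The median log2 ratio was -0.52, and 3127 genes were lower in all 6 libraries. In the libraries without s4U the median over the same genes was -0.10 untreated and -0.04 with emetine. These genes held 95.6% of junction reads and 80.4% of the other gene reads. Pooled over them, junction reads had 0.556 times the rate of other reads, and when each gene's other reads were weighted by its junction reads the ratio was 0.715. Library by library this weighted ratio was 0.688, 0.693 and 0.743 untreated and 0.725, 0.722 and 0.724 with emetine, and the treatments overlapped.

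The gap was present across the range of turnover. When the genes were split into 5 groups of 1199 by their conversions per T over all reads, the median log2 ratio was -0.56 in the lowest group (0.0710% to 0.458%), -0.56 in the middle group and -0.39 in the highest group (1.37% to 10.2%). Split by junction share, the median was -0.39 in genes with 1.63% to 23.5% junction reads and -0.55 in genes with 64.1% to 99.01%. Genes with more reads of a class pass the threshold more readily, so the counts called depend on depth.

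The 5 genes that led the lower direction had junction reads with far fewer conversions than their other reads. RPS29, a protein of the small ribosomal subunit (chr14:49570984-49599164, minus strand), had 0.287%, 0.358% and 0.315% in junction reads and 3.15%, 3.75% and 3.36% in other reads of the untreated libraries. With emetine the values were 0.271%, 0.278% and 0.262% against 1.82%, 4.05% and 2.78%. Its reads without a junction were thus 10.4 times as rich in conversions (log2 ratio -3.38, SE 0.25, limma adjusted p = 0.000817), on 3064 such reads in all beside 81283 junction reads. RPL28, a protein of the large subunit (chr19:55385932-55403250, plus strand), had 0.332% to 0.412% in junction reads and 2.90% to 3.07% in other reads untreated, and 0.324% to 0.381% against 1.43% to 1.96% with emetine, a log2 ratio of -2.63. Other reads of RPL28 did not overlap between treatments, but the difference of its log2 ratio, 0.66 (SE 0.41), did not pass the test (limma adjusted p = 0.885).

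ATPIF1, the inhibitor of the mitochondrial ATP synthase, annotated as ATP5IF1 (chr1:28236109-28246906, plus strand), had 0.343% in junction reads and 1.95% in other reads over the 6 libraries. ATP6V0B, a subunit of the vacuolar proton pump (chr1:43974487-43978295, plus strand), had 0.356% and 2.00%. ABCB8, an ATP-binding cassette transporter of mitochondria (chr7:151028422-151047782, plus strand), had 0.201% and 1.12%. Their log2 ratios were -2.51, -2.52 and -2.50 (limma adjusted p = 0.000817 each), lower in 6 of 6 libraries. In the libraries without s4U both read classes of these genes lay between 0.0318% and 0.0645%. In ABCB8 the junction reads did not overlap between treatments: 0.140%, 0.168% and 0.154% in junction reads untreated and 0.241%, 0.238% and 0.267% with emetine (difference of the log2 ratio 1.13, SE 0.39, unadjusted p = 0.0200, limma adjusted p = 0.885).

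The 5 genes that led the higher direction had more conversions in junction reads in all 6 libraries. ZC3HAV1, an antiviral zinc finger protein (chr7:139043515-139132122, minus strand), had 2.25%, 3.24% and 3.18% in junction reads and 0.816%, 1.16% and 1.33% in other reads untreated, and 2.58%, 3.31% and 1.97% against 1.10%, 1.32% and 1.33% with emetine (log2 ratio 1.23, SE 0.17, limma adjusted p = 0.00124). Only 1156 of its reads in these libraries crossed a junction, against 11357 that did not. SRSF1, an SR splicing factor (chr17:58000919-58007346, minus strand), had 1.57% in junction reads and 0.779% in other reads over the 6 libraries, a log2 ratio of 0.99 (SE 0.14, adjusted p = 0.00128). HELZ, an RNA helicase (chr17:67070444-67245989, minus strand), had 2.08% and 1.21%, and SUMO2, a small ubiquitin-like modifier (chr17:75165586-75182959, minus strand), had 0.763% and 0.460%.

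UBB, a polyubiquitin gene (chr17:16380798-16382745, plus strand), had 0.844% in junction reads and 0.466% in other reads (log2 ratio 0.86, SE 0.13, limma adjusted p = 0.00142). Its junction reads, however, had 0.555% and 0.455% conversions per T in the 2 libraries without s4U, where its other reads had 0.0590% and 0.0583%. After these values were subtracted the log2 ratio was -0.26. UBB was the only one of the 52 genes called higher that turned in sign under this subtraction, and 51 stayed positive. Ubiquitin genes share near-identical coding repeats and have processed copies, so the assignment of such reads is uncertain.

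**Figure D5:**
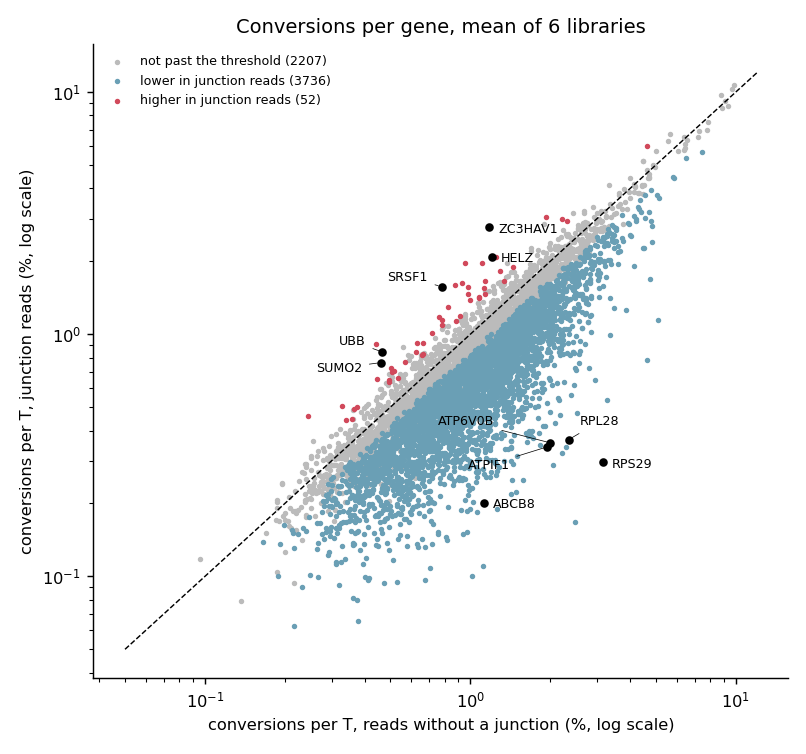
Conversions per T (%, log scales) in reads without a junction (horizontal) and in junction reads (vertical) for 5995 genes, each as the mean of the 6 libraries with s4U; the dashed line marks equal rates and the genes named in the text are labelled. Blue marks the 3736 genes lower in junction reads, red the 52 higher and gray the rest.

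Counts by list followed the same side. Of cytosolic ribosomal protein genes, 35 of 68 tested were lower in junction reads and none higher, with a median log2 ratio of -0.36, against -0.52 over all 5995 genes. The counts were 3 of 6 for detained-intron genes (median -0.41), 4 of 7 for snoRNA hosts (-0.38), 17 of 35 for zinc finger genes (-0.41, with 1 more gene higher) and 8 of 13 for spliceosome genes (-0.33). The last 2 counts fell whichever library was left out, to 11 to 15 zinc finger genes and 4 to 6 spliceosome genes. Zinc finger genes were fewest without the first emetine library. Spliceosome genes numbered 4 without the third emetine library and 5 without the first or the second untreated one. The count of ribosomal protein genes also fell with every library left out, to 30 to 34. Among SR factors, 6 of 12 were lower and 1, SRSF1, was higher (median -0.28). These shares lay at or below the 62.3% of all genes. MAT2A had 1.64%, 1.96% and 2.42% in junction reads and 3.06%, 3.15% and 3.65% in other reads untreated. In SRSF3, which regulates its own splicing, the 2 classes were near each other, with 0.738%, 0.673% and 0.887% in junction reads and 0.781%, 0.853% and 0.926% in other reads untreated, and both classes lay higher in every emetine library, at 1.09% to 1.11% and 1.14% to 1.17% in that order. This rise within each class was not tested.

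Emetine did not move the ratio of junction to other reads past the threshold in any gene. Of 5995 genes, 0% were called higher and 0% lower for the emetine difference (limma, adjusted p under 0.05), with 168 higher and 163 lower at an unadjusted p under 0.05. The median difference was 0.01 on the log2 scale, and 3090 genes were positive. No member of any list was called.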

How the data were processed

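The authors trimmed reads with cutadapt, mapped them to hg38 with hisat-3n and tabulated T positions and T-to-C conversions per read with bam2bakR; the annotation is not given in the sources used here. The deposited table holds whole read counts per combination of gene, chromosome, junction mark, T positions and conversions, without normalization and without molecular identifiers, so intervals cover counting error only. Libraries were grouped by their titles. The members and gene lists were chosen with earlier results of these data known. No column of samples was left unused (0); the 2 h tables, which hold the authors' own fold changes and spike-in values, were not used here.

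Counts were summed per class, chromosome and gene. Classes were compared by exact permutation tests, levels and junction shares with edgeR 4.0.16 (TMM; DESeq2 1.42.0 as an alternative), and conversion ratios with limma 3.58.1 (trend, robust) in R 4.3.3, all with Benjamini-Hochberg adjustment over every row tested. Genes named for the ratio of junction to other reads were the 5 with the smallest p in each direction; no gene qualified for junction share or for the emetine difference, and the list genes named were among those with the most reads. Scripts were tested on simulated data.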

Additional observations from a re-analysis of the deposited data

Results flagged for a closer look

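Reads outside the 4 classes also carried conversions above the background. Reads that matched several genes had at least 0.700% conversions per T in the 6 libraries with s4U, against at most 0.0509% in the 2 libraries without it. Reads on unplaced contigs had at least 0.796% with s4U, against at most 0.0597% without. Neither set entered a comparison of the classes.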

How the results depend on the processing

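Of 463 recomputed values for 67 results, 403 were scored as unchanged. For values with a test this meant the same direction and side of the threshold. Counts had to stay within a fixed factor of the main count. Values without a test had to keep their direction or move by less than an SD. The class tests of emetine could not cross the threshold, as their exact p cannot go below 0.1, so only their direction could change. Where spike-in reads set the scale, the log2 difference with emetine was 0.22 for the mitochondrial share, 0.44 for the junction share, 0.28 for the chrM level and 0.67 for the median of the 22 nuclear rows, all opposite in sign to the unscaled values. Restricting to 20 to 40 T turned the mitochondrial difference in reads with 2 or more conversions to 0.573 points. Centering gave 8 higher and 6 lower chromosome rates. A minimum of 500 reads, which fewer genes reach, gave 33 genes higher and 1683 lower in junction reads. The number of genes tested at that minimum is not given here, so these counts cannot be set against the main ones. Subtracting the rate without s4U, an alternative chosen after seeing the data, turned UBB to -0.26. Where not stated otherwise, the cause was not tested.

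Leaving out 1 library leaves 5 for the contrasts within libraries, whose smallest p is then 0.0625, so none can pass; their log2 ratios ranged from 2.07 to 2.11 (nuclear), 1.16 to 1.24 (mitochondrial) and -1.10 to -1.07 (junction). Differences of emetine minus untreated, in percentage points, ranged from -0.273 to 0.0103 (nuclear conversions per T), -0.0390 to 0.0436 (junction) and -0.144 to 0.00317 (other gene reads). The fraction of new reads ranged from -3.34 to 0.823 (nuclear), -2.42 to 0.189 (mitochondrial), -0.754 to 0.462 (junction) and -2.26 to 0.0682 (other). Reads with 2 or more conversions ranged from -2.18 to 0.180 (mitochondrial) and -0.624 to 0.0763 (junction). The chrM level ranged from -0.48 to -0.25 (log2) and the median of the 22 rows from -0.0537 to 0.0152. Calls ranged from 0 to 1 for unassigned rows lower (1, chrM, without emetine replicate 3), 0 to 18 for chromosome rates lower (18 without untreated replicate 1), 0 to 2 and 0 to 1 for junction share higher and lower (2 and 1 without emetine replicate 3), and 31 to 56 and 3250 to 3742 genes for junction reads higher and lower. For junction reads the genes tested were chosen anew with each library left out, and their numbers are not given here.

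Gene levels of samples with the same replicate number had correlated deviations of 0.0955, 0.0357 and -0.0921, and nothing in the labels ties the numbers to a batch, so they were not treated as pairs, although replicate 2 was the deepest and had the most T per read in both groups. With the replicate block all 30 values were scored as unchanged. For the class tests this was fixed in advance, as their exact p cannot go below 0.1, or below 0.25 with the block. The mitochondrial share differed by -1.21 points (exact p = 0.25, the smallest of 3 pairs) and the chrM level by -0.41 (log2).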
